A study of Caenorhabditis elegans with 2 samples.

Results

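The genes rpl-11.2 and rpl-11.1, and rpl-25.1 and rpl-25.2, are duplicated genes for 2 proteins of the large ribosomal subunit of Caenorhabditis elegans. In each pair, one copy lies on the X chromosome (rpl-11.2, rpl-25.1) and the other on an autosome (rpl-11.1 on chromosome V, rpl-25.2 on chromosome I). The 4 genes were taken by symbol from a table of 46739 genes, and all 4 were measured. RNA was compared between dissected gonads of YBT7 and of WT adult hermaphrodites, collected a day after the L4 larval stage, with 1 library for each strain. YBT7 carries the alleles deg-1(huj32) and linc-20(huj2) together with hujCf1. Its X chromosome was cut by Cas9 into 2 pieces, an internal segment from its middle and a linear segment that joins its left and right parts, with deletions in an intron of deg-1 and at the noncoding gene linc-20. It is a single engineered strain that had been outcrossed to WT. WT is the laboratory strain N2, with an uncut X chromosome. Both X-linked ribosomal protein genes lie on the linear segment. The question put to the 4 genes was how the X-linked copy compares with the autosomal copy of each pair, in YBT7 and in WT gonads.

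Ribosomal protein L11 (uL5 in the common nomenclature) joins the ribosome together with L5 and the 5S ribosomal RNA. The protein of the rpl-25 pair (uL23, the counterpart of mammalian L23a, and named rpl-23A.1 and rpl-23A.2 in the RefSeq annotation) sits at the mouth of the exit tunnel, where the nascent chain leaves the large subunit and meets the signal recognition particle. In the C. elegans germ line, the X chromosome is transcribed little during the early stages of meiosis, while autosomes are active. Several housekeeping genes of the worm exist as an X-linked and an autosomal copy, and the autosomal copy of such pairs is known to act in the germ line.

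The YBT7 library held 4525439 counts over 14188 genes, and the WT library 2873065 counts over 12356 genes. Counts were divided by a size factor per library to give normalized counts, and a gene was taken as measured when the mean normalized count of the libraries was above 5, which left 8618 genes. With 1 library per strain there is no replicate, so no test of the strain difference is possible and no p-value is given. All intervals are at 95% and cover counting error only. A gene was called higher or lower in YBT7 by the rule of the study's methods, when its log2 fold (YBT7 over WT) lay further from 0 than 5 divided by the square root of its mean normalized count, plus 1. The title and genotype labels name the YBT7 library, although its source label also contains the words wild type. The linc-20 gene had 0 counts in YBT7 and 4 in WT, and deg-1 had 3 in YBT7 and 1 in WT, too few to check the labels.

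The 2 genes of each pair share most of their gene structure. In the WBcel235 assembly, rpl-11.2 (WBGene00004423) spans 2241756 to 2242618 on the minus strand of chromosome X, and rpl-11.1 (WBGene00004422) spans 3585315 to 3586064 on the minus strand of chromosome V. In the annotated transcripts both encode 196 amino acids. The first coding parts are 135 and 216 bases long in both genes. The last 237 coding bases of rpl-11.1 lie in 1 exon, whereas in rpl-11.2 they are divided into 177 and 60 bases by an intron of 47 bases, so that rpl-11.2 has 4 exons and rpl-11.1 has 3. Their 3′ UTRs differ more, at 138 bases in rpl-11.2 and 57 bases in rpl-11.1. The rpl-25.1 gene (WBGene00004438) spans 4715178 to 4715801 on the plus strand of chromosome X, and rpl-25.2 (WBGene00004439) spans 8329061 to 8329684 on the minus strand of chromosome I. They encode 147 and 146 amino acids, each from 3 exons. The last coding parts are 193 and 99 bases long in both, and the first is 149 bases in rpl-25.1 and 146 in rpl-25.2. The 3′ UTRs are 44 bases in rpl-25.1 and 52 in rpl-25.2. No other annotated gene overlaps any of the 4. Reads that align to both copies of a pair are left out by the counting, so the level of each copy carries an uncertainty that could not be measured here.

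The rpl-11.2 gene, the X-linked L11 copy, had 1039 counts in YBT7 and 191 in WT. After normalization this was 848 in YBT7 (interval 798 to 902) and 234 in WT (interval 202 to 270), and the intervals did not overlap. The fold was 3.63 (interval 3.11 to 4.25), and its log2 fold of 1.86 was past the limit of 1.21 for its level, so it was called higher. The autosomal copy rpl-11.1 had 9827 counts in YBT7 and 6051 in WT, or 8024 and 7411 normalized counts. Its fold was 1.08 (interval 1.048 to 1.118), its log2 fold of 0.11 was far inside the limit of 1.06, and it was not called. This small difference has no stable sign, as it was -0.014 on the log2 scale when the other ribosomal protein genes set the size factors.

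The rpl-25.1 gene, the X-linked copy of the second pair, had 534 counts in YBT7 and 86 in WT. This was 436 normalized counts in YBT7 (interval 400 to 475) and 105 in WT (interval 84.2 to 130), again without overlap. The fold was 4.14 (interval 3.29 to 5.26), with a log2 fold of 2.05 against a limit of 1.30, and the gene was called higher. The autosomal copy rpl-25.2 had 8777 counts in YBT7 and 6189 in WT, or 7166 and 7580 normalized counts. Its fold was 0.945 (interval 0.915 to 0.977), a log2 fold of -0.081, and it was not called. Thus both X-linked copies were called higher in YBT7 and neither autosomal copy was called, beside 9.55% of all measured genes (823 of 8618) and 20.6% of measured genes on the linear segment (107 of 520) that were called higher. Among autosomal genes, 8.25% (623 of 7555) were called higher. In RNA from a whole tissue, more cells of a type and more RNA per cell cannot be told apart.

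**Figure D1:**
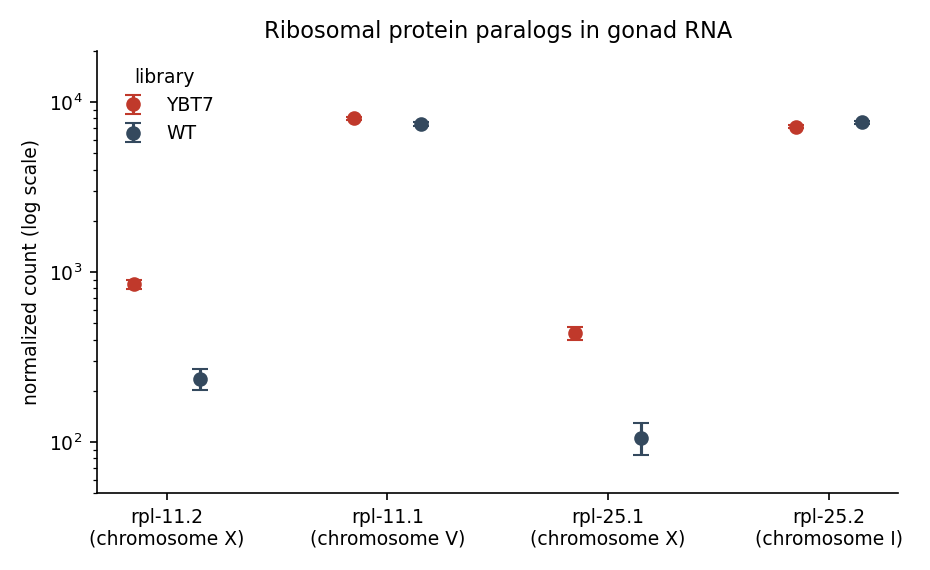
Normalized count (log scale) of the 4 paralogs in the YBT7 and WT gonad libraries, 1 library each, with bars for the 95% interval of counting error. The X-linked copies rpl-11.2 and rpl-25.1 stand at 848 and 436 in YBT7 and at 234 and 105 in WT, while the autosomal copies lie between 7166 and 8024 in both libraries.

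The autosomal copy was the more abundant of each pair in both strains, and the gap was smaller in YBT7. Per kilobase of transcript, rpl-11.2 reached 1161 normalized counts in YBT7 and 320.0 in WT, and rpl-11.1 12269 in YBT7 and 11332 in WT. The level of rpl-11.1 per length was therefore 10.6 times that of rpl-11.2 in YBT7 and 35.4 times in WT. For the second pair, rpl-25.1 reached 883 normalized counts per kilobase in YBT7 and 213 in WT, and rpl-25.2 14478 in YBT7 and 15313 in WT. The level of rpl-25.2 per length was 16.4 times that of rpl-25.1 in YBT7 and 71.8 times in WT. Because reverse transcription started from the poly(A) tail, counts need not scale with transcript length. From plain counts the ratios were 9.46 in YBT7 and 31.7 in WT for the rpl-11 pair, and 16.4 in YBT7 and 71.97 in WT for the rpl-25 pair.

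When strains are compared, the change in the ratio of X-linked to autosomal counts depends on neither the size factors nor the transcript length. The share of the counts of a pair that falls on the X-linked copy does not depend on the size factors. For the rpl-11 pair it was 9.56% in YBT7 (exact binomial interval 9.02 to 10.13) and 3.06% in WT (2.65 to 3.52). The ratio of X-linked to autosomal counts was 3.35 times as large in YBT7 as in WT (interval 2.86 to 3.94). For the rpl-25 pair the share was 5.74% in YBT7 (5.27 to 6.23) and 1.37% in WT (1.10 to 1.69), and the ratio was 4.38 times as large in YBT7 (interval 3.47 to 5.58). The intervals of the change in this ratio overlap between the 2 pairs, so the pairs are not separated in that change beyond counting error. The intervals of the shares do not overlap between the pairs in either strain.

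The higher counts of the X-linked copies were small beside the total of each pair. The rpl-11.2 gene was higher in YBT7 than in WT by 614 normalized counts, and the difference for rpl-11.1, which was not called, was 613, so that the pair summed to 8872 in YBT7 and 7645 in WT, a log2 fold of 0.21. The rpl-25.1 gene was higher in YBT7 by 331 normalized counts, whereas the difference for rpl-25.2, which was not called, was -414. The rpl-25 pair summed to 7602 in YBT7 and 7685 in WT, a log2 fold of -0.016.

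To set the pairs against other X-linked and autosomal duplicates, the share was computed for 4 pairs outside the ribosomal protein family. Their X-linked copies all lie on the internal segment, so segment and gene family cannot be told apart in this comparison. None of these 8 genes was called. The X-linked eef-1A.2, which encodes the translation elongation factor eEF1A, had 343 counts in YBT7 and 182 in WT, and its autosomal copy eef-1A.1 had 17940 in YBT7 and 15192 in WT. The X share of this pair was 1.88% in YBT7 (interval 1.68 to 2.08) and 1.18% in WT (1.02 to 1.37), a ratio of ratios of 1.60 (interval 1.33 to 1.92). Part of this came from eef-1A.1, whose log2 fold was -0.35, while that of eef-1A.2 was 0.33. The X-linked pab-2, which encodes a cytoplasmic poly(A)-binding protein, took 6.98% of the counts of its pair with pab-1 in YBT7 and 5.07% in WT, a ratio of ratios of 1.40 (interval 1.119 to 1.774). The log2 folds were 0.82 for pab-2 and 0.33 for pab-1.

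The other two pairs had intervals that include equal ratios in YBT7 and WT. The 14-3-3 protein gene ftt-2 took 15.7% of the counts shared with its autosomal copy par-5 in YBT7 and 16.9% in WT, with a ratio of ratios of 0.913 (interval 0.821 to 1.01). The X-linked histone H3.3 gene his-71 had 54 counts in YBT7 and 26 in WT, against 3316 and 2202 for the autosomal his-72. Its ratio of ratios was 1.38 (interval 0.846 to 2.30), and at this depth a shift was not detectable. The upper limits of all 4 of these pairs lay below the lower limits of both ribosomal protein pairs.

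**Figure D2:**
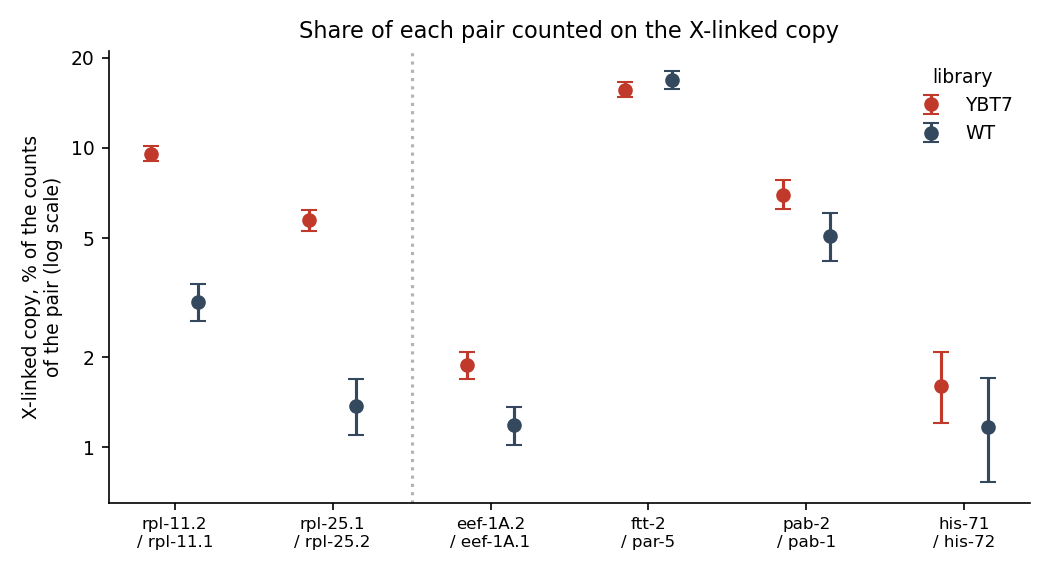
Share of the counts of each pair that falls on the X-linked copy (log scale) in the YBT7 and WT libraries, with exact 95% binomial intervals. The rpl-11 and rpl-25 pairs, left of the dotted line, stand at 9.56% and 5.74% in YBT7 and at 3.06% and 1.37% in WT; the 14-3-3 pair of ftt-2 and par-5 stands at 15.7% and 16.9%.

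Among the genes for cytosolic ribosomal proteins, the 2 X-linked copies had the largest log2 folds and were near the bottom in level, together with the autosomal rpl-2. The family has 79 symbols in the table, of which 77 were measured, and rpl-11.2 and rpl-25.1 are its only X-linked genes. The 2 symbols below the limit were rpl-37, with 0 counts in YBT7 and 1 in WT, and rpl-42, with 0 in both, named here after their values were seen. Per kilobase of transcript, rpl-25.1 had the lowest level of the 77 genes in both libraries, and rpl-11.2 held position 3 from the bottom in YBT7 and position 2 in WT. The rpl-2 gene lay between the 2 copies in YBT7, with 932 normalized counts per kilobase, and just above rpl-11.2 in WT, with 395. The rpl-11.1 and rpl-25.2 genes were near the middle of the family, at positions 36 and 44 from the bottom in YBT7 and 37 and 53 in WT. The median of the other 73 measured members was 13432 normalized counts per kilobase in YBT7 and 12266 in WT. Of all counts of the family, the X-linked copies held 0.208% in YBT7 (1573 of 755802) and 0.0605% in WT (277 of 458029).

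In all, 3 genes of the family were called higher and none lower, beside 9.55% and 1.25% of all measured genes. All 77 measured family genes had a mean normalized count above 50. Of the 5324 genes above that mean, 260 were called higher and 18 lower. The 3 family genes called higher were rpl-25.1, rpl-11.2 and the autosomal rpl-2 (uL2), which had 986 counts in YBT7 and 279 in WT. Its log2 fold of 1.24 was just past the limit of 1.21, and its call is lost with size factors from total counts or from the other ribosomal protein genes. The 73 family members outside the 2 pairs had a median log2 fold of 0.13, and 58 of them lay above 0 and 15 below. The median over all measured genes was -0.030. Their lowest log2 fold was -0.26, that of rpl-5, which encodes the 5S-binding partner of L11. The log2 folds of rpl-11.1 (0.11) and rpl-25.2 (-0.081) lay within this range, whereas those of both X-linked copies lay above that of every autosomal member.

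**Figure D3:**
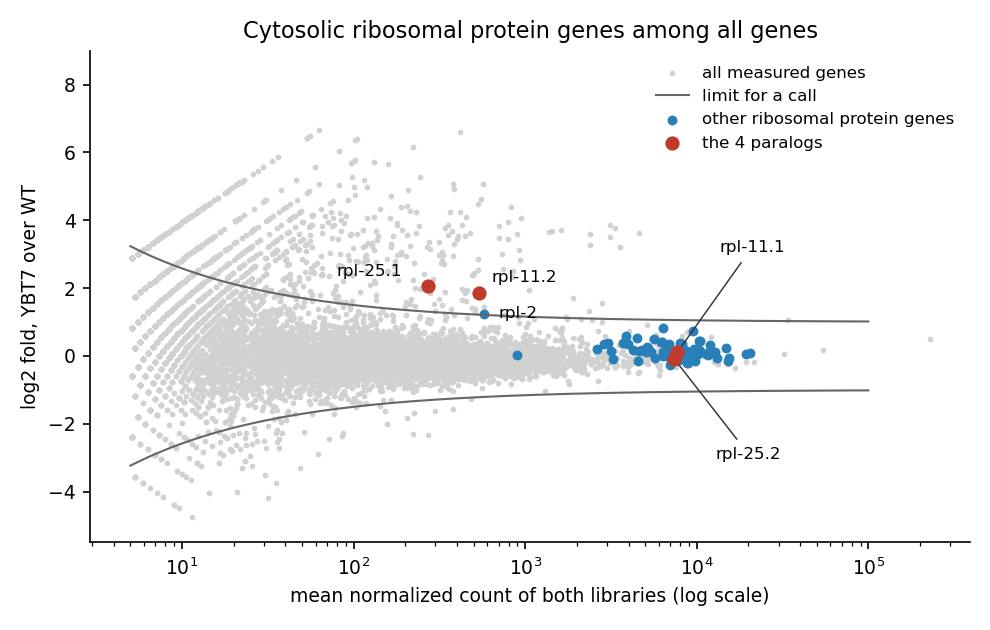
Mean normalized count of both libraries (log scale) and log2 fold of YBT7 over WT for measured genes, with the limit for a call drawn as grey lines; 150 measured genes with 0 counts in 1 library are not drawn. The X-linked rpl-11.2 and rpl-25.1 lie above the limit, rpl-2 lies on it, and rpl-11.1 and rpl-25.2 lie among the other ribosomal protein genes.

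Because both X-linked copies were in a low range in WT, they were also set beside X-linked genes with 100 to 500 normalized counts in WT, a range chosen after seeing the data. Of 138 such genes, the 2 copies included, 17 were called higher (12.3%) and 12 lower (8.7%). Their median log2 fold was -0.34, with quartiles at -0.83 and 0.19. Only 8 of them had a larger log2 fold than rpl-11.2 and 6 a larger one than rpl-25.1. Of 2831 autosomal genes in the same range, 31 (1.1%) were called higher, and their median log2 fold was -0.14. The 2 copies were thus in the upper tail of X-linked genes of their level.

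Of 12 listed genes whose products work with the 2 proteins on the ribosome, 11 were found and measured. None was called, beside 9.55% of all measured genes called higher and 1.25% called lower, so that few calls would fall among 11 genes at the background share. Their median log2 fold was 0.0050, and -0.065 with total counts as size factors. The list holds the 5S particle genes rpl-5 and rrbs-1, the proteins around the exit tunnel, and the nascent chain complex and signal recognition particle. The lowest log2 fold was that of rrbs-1, an assembly factor for the 5S particle, at -0.27 (302 counts in YBT7 and 243 in WT). The highest was that of srpa-72, a signal recognition particle protein, at 0.64 (442 counts in YBT7 and 189 in WT). Of 19 genes for ribosome assembly and RNA polymerase I, all were measured, none was called (beside the same shares of all genes), and 4 had a log2 fold above 0. Their median was -0.17, with the lowest value in rpoa-2, a subunit of RNA polymerase I (-0.55), and the highest in pro-3 (0.28).

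Around the X-linked copies, 0 of 10 and 1 of 10 neighbours were called higher, beside 18.8% of X-linked genes and 20.6% of those on the linear segment, and counts this small say little about the neighbours. Of the 10 nearest measured genes around rpl-11.2, which reach 65.3 kb away, none was called, and their log2 folds ran from -0.68 to 2.66 with a median of 0.37. The highest lay just inside its limit of 2.67, and another, at 1.78, just inside its limit of 1.81. The nearest on either side were vha-15, a V-ATPase subunit gene 1.502 kb away with 188 counts in YBT7 and 70 in WT (log2 fold 0.84), and crn-4, a nuclease gene 13.2 kb away (log2 fold -0.23). Around rpl-25.1, the nearest gene was glit-1, only 0.098 kb away, with 41 counts in YBT7 and 46 in WT and a log2 fold of -0.75. On the other side was aman-1, 17.2 kb away, with 19 counts in YBT7 and 5 in WT (1.34). Of its 10 neighbours, 1 was called higher, the aquaporin gene aqp-8, which had 13 counts in YBT7 and 0 in WT and was at least 2.89-fold higher against a floor of 3 counts in the WT library. The median of the 10 was -0.15.

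Around the autosomal copies, 2 of 10 and 1 of 10 neighbours were called higher, beside 8.25% of autosomal genes, and counts this small again say little. Around rpl-11.1, the lysozyme gene lys-7 (411 counts in YBT7, 18 in WT) and F59B1.2 (59 in YBT7, 3 in WT) were called higher, and the median log2 fold of the 10 was 0.75. The nearest, T22F3.3 and T22F3.2, were not called (-0.33 and 0.30). Around rpl-25.2, the cytochrome P450 gene cyp-36A1 (26 counts in YBT7, 1 in WT) was called higher, and the median was -0.19. The nearest were cep-1, the worm p53 gene, at -0.16, and C34B7.1 at 1.26, neither of them called. Most of these neighbours had few counts, and their log2 folds are imprecise.

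**Figure D4:**
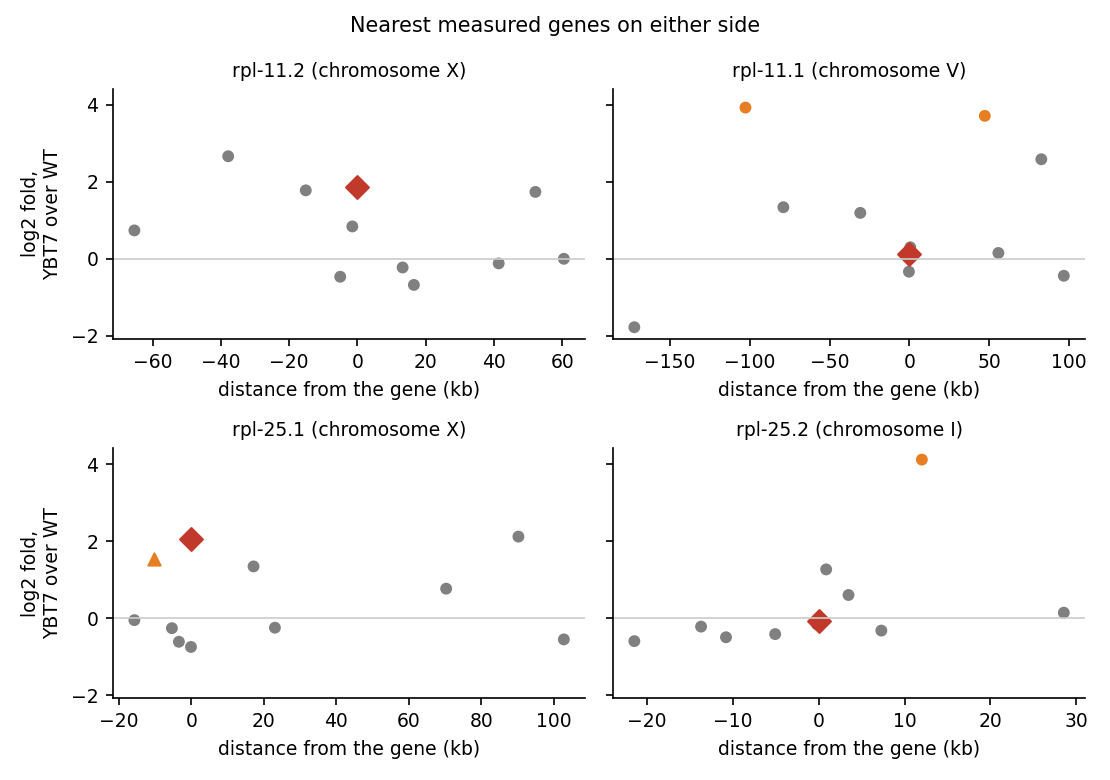
Log2 fold of YBT7 over WT against the distance in kb from each of the 4 genes (red diamonds) for the 5 nearest measured genes on each side; orange marks called genes and the triangle is aqp-8, drawn at its bound. None of the neighbours of rpl-11.2 and 1 of those of rpl-25.1 was called.

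Markers of some somatic tissues outside the gonad, namely intestine, body wall muscle, and hypodermis and cuticle, moved in the same direction as the X-linked copies. All 6 vitellogenin genes, which encode yolk proteins made in the intestine, were called higher, with 43404 counts in YBT7 and 2415 in WT in sum, a fold of 11.98 after normalization. All 9 measured intestine markers were called higher (7250 counts in YBT7, 380 in WT, fold 12.7), as were 8 of 10 for body wall muscle (8407 in YBT7, 1182 in WT, fold 4.74) and all 4 measured for hypodermis and cuticle (12421 in YBT7, 783 in WT, fold 10.6). Of the measured markers, 5 vitellogenins, 1 for intestine, 3 for body wall muscle and 1 for hypodermis and cuticle are X-linked. For these genes, tissue and X linkage cannot be told apart. The intestinal markers ges-1 (15 counts in YBT7) and elt-2 (11 in YBT7) were at 0 in WT, and the cuticle markers rol-6 and wrt-2 at 0 in both libraries. Of 8 neuronal markers 2 were called higher (sbt-1 and egl-21), and 6 had a log2 fold above 0, with a median of 0.59. Their summed counts had a fold of 1.17. Most of these counts were from snb-1 (1596 of 1986 in YBT7, 965 of 1135 in WT). None of the measured markers for pharynx (4), gonadal sheath and spermatheca (3), germline (10) or oocyte (8) was called, with folds of 0.990, 1.03, 0.829 and 0.967. The sheath and spermatheca markers lim-7, ceh-18 and fkh-6 were too low to be measured. They had 9, 6 and 1 counts in YBT7 and 0, 2 and 0 in WT. Over all measured genes, 9.55% were called higher and 1.25% lower. At that share few calls would fall in lists this small, so their absence says little. The 4 measured sperm markers were lower, with 41 counts in YBT7 and 179 in WT for the whole list. Folds of the X-linked copies were 3.63 and 4.14. They were below the fold of the summed counts of each of the 4 lists in which all or most measured markers were called higher. By the median marker, body wall muscle was not above both copies. Its median log2 fold was 1.93, against 1.86 for rpl-11.2 and 2.05 for rpl-25.1. The medians were 3.65 for vitellogenins, 3.85 for intestine and 3.42 for hypodermis and cuticle. The part of other tissues in the counts of rpl-11.2 and rpl-25.1 was not tested.

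**Figure D5:**
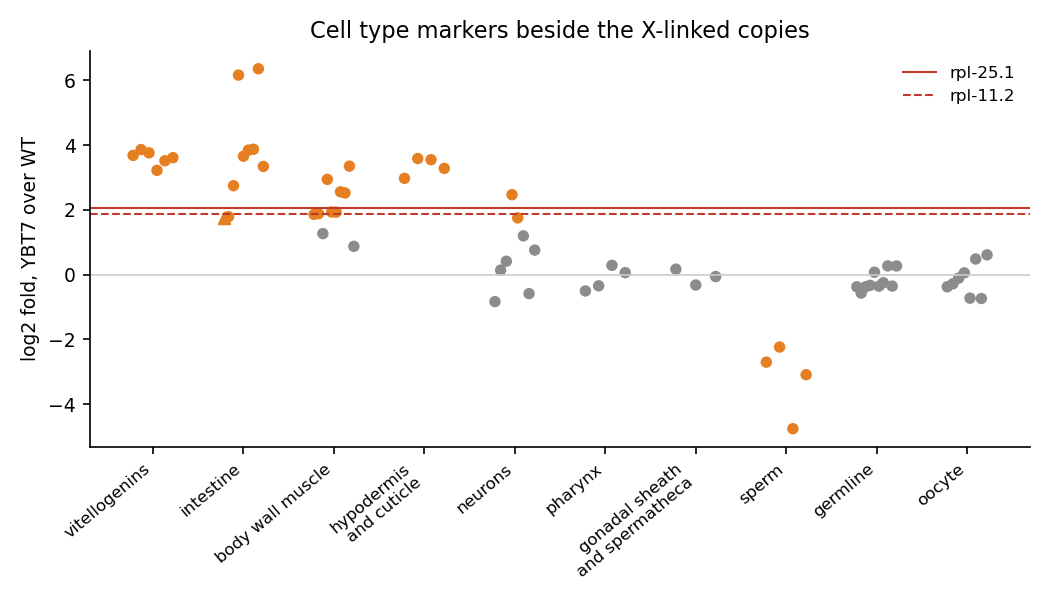
Log2 fold of YBT7 over WT for each measured marker gene by cell type list, with orange for called genes, grey for others and a triangle for ges-1, drawn at its bound because it had 0 counts in WT. Red lines mark rpl-25.1 (2.05) and rpl-11.2 (1.86). They run through the body wall muscle, intestine and neuronal markers and below the vitellogenins.

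The genes with the most similar pair of levels were found by distance between log2 normalized counts plus 1 in the 2 libraries, which describes 2 points per gene and no more. For rpl-25.1 (534 counts in YBT7, 86 in WT) they were far-1, a fatty acid and retinol binding protein gene (589 and 82), unc-54, the body wall muscle myosin heavy chain (534 and 98), and F07H5.5 (473 and 81). For rpl-11.2 (1039 and 191) they were ttr-2, a transthyretin-related gene (838 and 182), the X-linked C14E2.12 (869 and 219) and WBGene00004677, annotated as a pseudogene (903 and 231). All 6 of these genes were called higher. A call is computed from the same counts, so these calls follow from the choice by level and are not a separate result. For rpl-11.1 they were rpl-3, Y82E9BR.3 and ant-1.1, and for rpl-25.2 ant-1.1, rpl-3 and the Y-box protein gene cey-3. None of them was called, which again follows from the choice. By level, the autosomal copies lay beside another ribosomal protein gene and ant-1.1, which encodes the mitochondrial ADP/ATP translocase.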

How the data were processed

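The authors reverse-transcribed RNA of dissected gonads from poly(T) primers with molecular identifiers, and in vitro transcription amplified the product. Per the labels and the methods, reads were trimmed with cutadapt (1.12), aligned to WBcel235 with TopHat2 (2.1.1, up to 2 mismatches, Ensembl release 36) and counted per gene with HTSeq (0.6.0, default settings, which drop reads with several alignments). Whether identifiers were collapsed is not given in the sources used here. The deposited raw counts of both libraries were used. The deposited normalized values, log2 folds and decisions of the authors, made with DESeq2 (1.12.4), were not used.

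Size factors were medians of ratios over 10603 genes. Folds have exact conditional intervals, shares Clopper-Pearson intervals, and ratios of ratios conditional odds ratio intervals. A floor of 3 counts per library stands for 0. Transcript lengths and exons came from Ensembl release 115 (longest coding transcript). The named genes are the 4 paralogs, both genes of each other pair, called genes and the extremes of each list, called and nearest neighbours, and the 3 genes of most similar levels. Of 110 listed genes 2 (srpa-54, opt-2) were not matched. The paralogs and lists were chosen with earlier results of these data known. Alternatives were TMM (edgeR 4.0.16), total counts, size factors from autosomal or from other ribosomal protein genes, thinning of YBT7 to the WT total, a pseudocount of 1, fixed limits, other minimum means and other lengths. Scripts used R 4.3.3, scipy 1.17.1 and numpy 2.4.6 under Python 3.11.15, with pandas 2.3.3 for tables and matplotlib 3.10.9 for plots.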

Additional observations from a re-analysis of the deposited data

How the results depend on the processing

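The log2 fold ranged over the alternatives from 1.73 to 1.89 for rpl-11.2, from 1.92 to 2.08 for rpl-25.1, from -0.014 to 0.14 for rpl-11.1 and from -0.21 to -0.054 for rpl-25.2. With a fixed limit of 4-fold, rpl-11.2 (1.86) was not called, because this limit lies above its fold, and rpl-25.1 was. The sign turned for rpl-11.1 (-0.014) with size factors from the other ribosomal protein genes, which move the median of all genes to -0.16, and for his-72 with total counts (-0.065), with those size factors (-0.12) and after thinning (-0.017). The rpl-2 call was lost with total counts (1.17), ribosomal protein size factors (1.11), thinning (1.21) and the 4-fold limit (1.24). The ratio of rpl-11.1 to rpl-11.2 in YBT7 was 9.46 from plain counts and from coding length. With total counts the family median was 0.058, 2 of its genes were called higher in place of 3, and the median of the partners turned to -0.065. The other log2 folds of single genes kept their direction and call. The genes called higher number 823, but 1482 with a fixed 2-fold limit, 1644 over every gene with 3 counts and 260 above a mean of 50, and those called lower 108, but 398, 223 and 18. No paired analysis was possible because each strain has 1 library, and strain and library cannot be told apart.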
